A study of Homo sapiens with 4 samples.

Results

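MHC class I antigen presentation was followed through 9 genes of the 61806 genes in the deposited table, taken by gene symbol: the heavy chains HLA-B, HLA-C, HLA-E and HLA-F, the light chain B2M, the loading factors TAP1, TAP2 and TAPBP, and the regulator NLRC5. All 9 symbols were found. RNA was sequenced from 2 human bone tumour lines kept in suspension: JJ012, a chondrosarcoma (a tumour of cartilage-forming cells), and 143B, an osteosarcoma (a tumour of bone-forming cells). Detached culture is the setting of anoikis, the death of cells that lose their attachment, and melatonin is the hormone of the pineal gland. Each line was measured once as an untreated control and once after 1 mM melatonin for 72 h, which gave 4 libraries, so within a line condition and library cannot be told apart, and no comparison within a line or between the lines carries a test. Each line is a single cell line and stands for no other tumour of its kind.

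A class I molecule is a heavy chain paired with beta-2-microglobulin (B2M) and a short peptide cut from cytosolic proteins by the proteasome. TAP1 and TAP2 form the pump that carries such peptides into the endoplasmic reticulum, tapasin (TAPBP) holds the empty molecule at that pump, and the finished complex is shown at the cell surface to cytotoxic T cells and, for HLA-E above all, to receptors of natural killer cells. NLRC5 is the transactivator that joins the factors RFX, CREB/ATF and NF-Y at class I promoters, and interferons raise expression of most of the pathway.

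The promoters of 7 of the 9 members were in the RefSeq table for GRCh38.p14, as windows from 250 bases before to 50 bases after the start of transcription. HLA-E and NLRC5 were not among them. Of the windows, 5 are shown because 4 belong to the genes that fell in JJ012 with melatonin (HLA-B, HLA-C, HLA-F and B2M) and the other to TAP2, the member whose level was higher there. Capitals mark matches, on either strand, to the interferon-stimulated response element core (GAAANNGAAA, read on the other strand as TTTCNNTTTC), the gamma-activated site (TTCNNNGAA), the CCAAT box (CCAAT or ATTGG) and the CRE core (TGACG or CGTCA). Each sequence runs 5′ to 3′ on the strand of the gene. The windows are chr6:31357130-31357429 on the minus strand for HLA-B, chr6:31272043-31272342 on the minus strand for HLA-C, chr6:29723184-29723483 on the plus strand for HLA-F, chr15:44711267-44711566 on the plus strand for B2M and chr6:32838690-32838989 on the minus strand for TAP2.
HLA-B: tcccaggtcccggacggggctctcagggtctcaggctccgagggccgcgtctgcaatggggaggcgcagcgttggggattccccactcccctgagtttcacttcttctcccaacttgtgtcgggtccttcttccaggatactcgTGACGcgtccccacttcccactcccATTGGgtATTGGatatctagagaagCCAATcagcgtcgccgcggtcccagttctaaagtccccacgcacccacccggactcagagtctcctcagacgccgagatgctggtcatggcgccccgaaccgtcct
HLA-C: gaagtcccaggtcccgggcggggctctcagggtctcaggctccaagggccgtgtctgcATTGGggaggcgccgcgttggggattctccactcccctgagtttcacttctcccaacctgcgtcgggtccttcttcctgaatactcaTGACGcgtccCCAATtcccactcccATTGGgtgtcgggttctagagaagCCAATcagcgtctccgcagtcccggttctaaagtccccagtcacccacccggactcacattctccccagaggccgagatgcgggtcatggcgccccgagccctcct
HLA-F: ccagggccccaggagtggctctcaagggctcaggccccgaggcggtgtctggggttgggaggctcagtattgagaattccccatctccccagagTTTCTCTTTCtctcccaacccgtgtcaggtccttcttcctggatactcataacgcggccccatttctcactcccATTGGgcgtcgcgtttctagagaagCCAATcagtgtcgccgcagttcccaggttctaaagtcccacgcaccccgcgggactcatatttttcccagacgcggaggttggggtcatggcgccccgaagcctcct
B2M: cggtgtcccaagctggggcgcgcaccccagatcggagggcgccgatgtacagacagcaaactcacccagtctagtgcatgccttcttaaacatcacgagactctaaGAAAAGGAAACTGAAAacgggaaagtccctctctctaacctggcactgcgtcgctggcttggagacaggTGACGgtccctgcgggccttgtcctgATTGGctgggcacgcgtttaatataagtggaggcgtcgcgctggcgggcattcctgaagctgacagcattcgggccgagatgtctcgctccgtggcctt
TAP2: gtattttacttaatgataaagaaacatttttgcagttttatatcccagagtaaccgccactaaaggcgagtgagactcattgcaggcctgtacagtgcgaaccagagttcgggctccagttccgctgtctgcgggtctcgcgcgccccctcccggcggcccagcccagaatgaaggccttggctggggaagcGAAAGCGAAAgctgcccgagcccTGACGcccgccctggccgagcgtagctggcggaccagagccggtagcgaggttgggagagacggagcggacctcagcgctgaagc

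The HLA-B and HLA-C windows were identical at 88.5% of aligned positions, and HLA-F matched them at 79.2% and 78.5%. These 3 heavy-chain windows shared an unbroken run of 18 bases, TCTAGAGAAGCCAATCAG, which starts 66 bases before the start of HLA-B and of HLA-C and 67 bases before that of HLA-F and holds a CCAAT box. The B2M window was identical to the HLA-B window at 48.0% of positions and the TAP2 window at 46.0%. A CCAAT box stood in the windows of 5 of the 7 members (B2M, HLA-B, HLA-C, HLA-F and TAP1), against 34.6% of all 35116 promoters of the table. The CRE core stood in 4 of 7 (B2M, HLA-B, HLA-C and TAP2), against 24.6%. The interferon-stimulated response element core stood in 5 of 7 (B2M, HLA-F, TAP1, TAP2 and TAPBP), against 3.57%, and in B2M, TAP1 and TAPBP it occurred as a pair of overlapping matches. The gamma-activated site was found in 1 member, in another window of TAP1, against 7.66% of all promoters. The patterns allowed no mismatch or gap, so near matches were not counted. The HLA-B and HLA-C windows hold tttcacttc, a base short of TTTCNNTTTC, near the place of the HLA-F match. A window without a match is thus not shown to lack such an element. These are matches of letters, and the binding of any factor was not measured.

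The heavy chains lie in the major histocompatibility complex of chromosome 6 (hg38), as do TAP1, TAP2 and TAPBP. In the deposited annotation HLA-F (ENSG00000204642) spans chr6:29722775-29738528, HLA-E (ENSG00000204592) chr6:30489509-30494194, HLA-C (ENSG00000204525) chr6:31268749-31272130 and HLA-B (ENSG00000234745) chr6:31353872-31367067. TAP2 (ENSG00000204267) spans chr6:32821833-32838739, TAP1 (ENSG00000168394) chr6:32845209-32853816 and TAPBP (ENSG00000231925) chr6:33299694-33314284. B2M (ENSG00000166710) is at chr15:44711358-44718851 and NLRC5 (ENSG00000140853) at chr16:56989485-57083531. The values are gene totals over exons, so exons and isoforms were not resolved.

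The libraries held 15889564 to 19218343 counts, and 13198 to 14477 genes reached 1 FPKM (counts per exonic length, scaled to the library total). A count of 3, the limit that a count of 0 allows, corresponded to 0.156 to 0.189 CPM (counts scaled to the library total, without regard to length). Levels are given in FPKM. A change is the log2 ratio of FPKM + 1, which understates the change of low genes, and a gene with at least 1 FPKM in either library compared is called risen or fallen at an absolute value of 0.58 or more. Beside it stands the log2 ratio of CPM with its exact 95% interval, which covers counting error only and takes reads as independent molecules. The labelled cell types were weakly marked: of 8 cartilage genes SOX9 alone reached 1 FPKM, at 15.1 FPKM in the JJ012 control and 15.5 FPKM in that of 143B, and COL2A1 had 0 FPKM in JJ012. The summed level of 8 bone genes went against the labels, at 107 FPKM in the chondrosarcoma control and 6.97 FPKM in the osteosarcoma control, with SPP1 at 79.4 and 0.4 FPKM, COL1A2 at 12.5 and 0 FPKM and RUNX2 at 3.02 and 4.28 FPKM.

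With melatonin, 4 of the 9 members fell in JJ012 and none rose. HLA-B, HLA-C, HLA-F and B2M were 1.55-fold to 2.1-fold lower in CPM, HLA-E, TAP1 and TAPBP were lower without reaching the threshold, and TAP2 was the single member that was higher. All 9 members passed the filter. Among all 15794 genes tested in this line, 18.6% fell and 19.6% rose. The median log2 fold change of the members was −0.53, and that of all tested genes was 0.01. For 8 members the whole counting interval lay below 0, and for TAP2 it lay above 0. Scaling decided 2 calls: with TPM and with TMM-scaled totals, B2M (log2 fold changes −0.36 and −0.56) fell short of the threshold and TAP2 (0.74 and 0.61) passed it. The share of counts from mitochondrially encoded genes was 4.35% in JJ012 with melatonin against 6.78% without it, and 2.46% against 1.63% in 143B, and its part in these values was not tested. In 143B none of the 8 members that passed the filter rose or fell, where 6.65% of 14135 genes fell and 6.09% rose, and the members' median was −0.10 against 0.03 for all tested genes. Over both lines in 1 fit, with the line as a block and 1 residual degree of freedom, edgeR's quasi-likelihood test called 0 of the 9 members at a false discovery rate of 0.05, where 0.0663% of 18107 genes rose and 0.364% fell, and 0 members at an unadjusted p under 0.05. The smallest unadjusted p of that edgeR test among the members was 0.148, for HLA-C (log2 fold change −0.59). This fit was added after the values were seen.

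**Figure D1:**
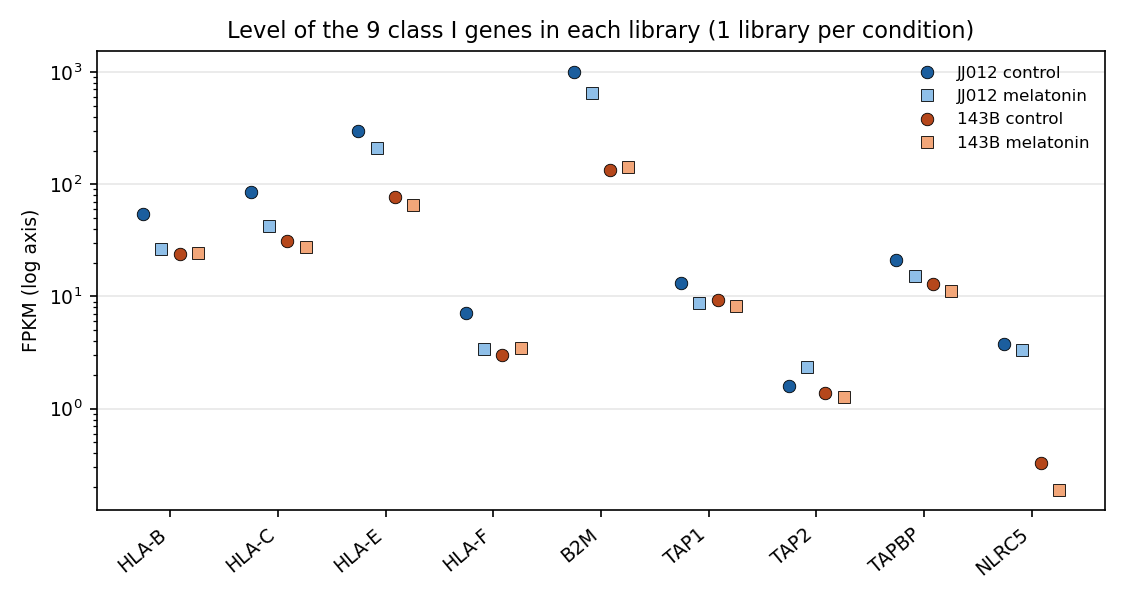
Level of each of the 9 members in the 4 libraries, in FPKM on a log axis, 1 point per library. B2M is the highest member in every library, from 135 FPKM in the 143B control to 1009 FPKM in the JJ012 control, and the JJ012 control is the highest library for every member but TAP2.

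Among the heavy chains, HLA-B, a classical molecule that presents peptides to CD8 T cells, had 54.5 FPKM in the JJ012 control and 26.4 FPKM in the JJ012 melatonin library, and 23.7 FPKM and 24.4 FPKM in the corresponding 143B libraries. The JJ012 control thus stood above the other 3 libraries, which lay close together. The log2 fold change was −1.02 in JJ012, with a log2 CPM ratio of −1.05 (interval −1.12 to −0.97), and 0.04 in 143B (log2 CPM ratio 0.04, interval −0.05 to 0.13). HLA-B was counted 4844 times in the JJ012 control and 1972 times after melatonin.

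HLA-C, the other classical chain among the members and a ligand of killer-cell immunoglobulin-like receptors, had 84.9 FPKM in the JJ012 control and 42.9 FPKM after melatonin, against 31.3 FPKM and 27.5 FPKM in 143B. Both JJ012 libraries were above both 143B libraries. The log2 fold change was −0.97 in JJ012 (log2 CPM ratio −0.99, interval −1.07 to −0.90). In 143B it was −0.18 (log2 CPM ratio −0.19, interval −0.30 to −0.07), short of the threshold.

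HLA-E, which presents leader peptides of other class I chains to the natural killer receptor NKG2A, was the most abundant heavy chain of the 4 in every library: 301 FPKM in the JJ012 control, 211 FPKM in JJ012 with melatonin, 77.7 FPKM in the 143B control and 65.3 FPKM in 143B with melatonin. It was lower in the melatonin library of both lines, by less than the threshold in each. The log2 CPM ratios were −0.52 in JJ012 (interval −0.55 to −0.48) and −0.25 in 143B (interval −0.32 to −0.18).

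HLA-F, a nonclassical chain of restricted surface expression, was the least abundant heavy chain, with 7.17 FPKM and 3.42 FPKM in the JJ012 control and melatonin libraries and 3.03 FPKM and 3.47 FPKM in those of 143B. As for HLA-B, the JJ012 control stood apart and the other 3 libraries lay close together. The log2 fold change was −0.89 in JJ012 (log2 CPM ratio −1.07, interval −1.29 to −0.85) and 0.15 in 143B (log2 CPM ratio 0.19, interval −0.08 to 0.46). HLA-F overlaps HLA-F-AS1 on the other strand, which had 161, 118, 263 and 324 counts in the JJ012 control, JJ012 melatonin, 143B control and 143B melatonin libraries, and the strand setting of the counting is not given in the sources used here.

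B2M, the light chain that every class I molecule needs, had 1009 FPKM in the JJ012 control and 649 FPKM after melatonin, but 135 FPKM and 141 FPKM in 143B. Its 60546 counts in the JJ012 control were 0.315% of that library, against 0.0422% in the 143B control. The log2 fold change was −0.64 in JJ012 (log2 CPM ratio −0.64, interval −0.66 to −0.62) and 0.06 in 143B (log2 CPM ratio 0.06, interval 0.02 to 0.11). The summed FPKM of the 4 heavy chains was 0.444 of that of B2M in the JJ012 control and 0.436 after melatonin, a count ratio 0.971 times that of the control (interval 0.948 to 0.996), so that light and heavy chains were lower by nearly the same factor. In 143B it was 1.0 and 0.853 (0.865 times, interval 0.825 to 0.907). Among the heavy chains, HLA-B and HLA-C were lower by more than HLA-E in JJ012. HLA-B and HLA-C together had 0.463 of the FPKM of HLA-E in the control and 0.329 after melatonin, a count ratio 0.706 times that of the control (interval 0.675 to 0.739). In 143B the same ratio was 0.708 and 0.794 (1.15 times, interval 1.07 to 1.23). Such ratios within a library do not depend on how libraries are scaled, and the genes in them were chosen after their values were seen.

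The subunits of the peptide pump had ratios of opposite sign in JJ012. TAP1 had 13.2 FPKM in the JJ012 control and 8.79 FPKM after melatonin, and 9.21 FPKM and 8.21 FPKM in 143B. TAP2, its partner, had 1.59 FPKM and 2.35 FPKM in JJ012 and 1.37 FPKM and 1.28 FPKM in 143B, so its highest library was JJ012 with melatonin. In JJ012 the log2 CPM ratio was −0.58 for TAP1 (interval −0.72 to −0.45) and 0.56 for TAP2 (interval 0.34 to 0.78), with log2 fold changes of −0.53 and 0.37, both short of the threshold. The TAP1 to TAP2 ratio of FPKM was 8.28 in the JJ012 control and 3.74 after melatonin, a count ratio 0.452 times that of the control (interval 0.378 to 0.541). TAP1 has 4738 exonic bases and TAP2 10357, a property with which fold changes moved in this library pair, and its part in the ratio was not tested. In 143B it was 6.72 and 6.41 (0.955 times, interval 0.768 to 1.19).

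TAP1 and TAP2 each share sequence or position with other genes. TAP1 overlaps the immunoproteasome gene PSMB9 on the other strand, which had 521 and 381 counts in JJ012 and 57 and 77 in 143B. Of the 6175 windows of 150 bases in TAP2 coding transcripts, 31.0% occur unchanged in ENSG00000250264, a gene that overlaps it on the same strand and had at most 9 counts in a library, while the other 8 members shared 0 windows with any other gene. How the alleles of these lines align to a single reference was not tested.

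Tapasin, TAPBP, had 21.2 FPKM in the JJ012 control and 15.3 FPKM after melatonin, and 12.8 FPKM and 11.3 FPKM in 143B. It was lower after melatonin in both lines without reaching the threshold, with log2 CPM ratios of −0.47 (interval −0.56 to −0.38) in JJ012 and −0.18 (interval −0.29 to −0.07) in 143B. NLRC5 had 3.77 FPKM and 3.32 FPKM in JJ012 but 0.33 FPKM and 0.19 FPKM in 143B, where it did not pass the filter. Its counts were 897 and 663 in JJ012 and 64 and 40 in 143B. Its log2 CPM ratio was −0.18 in JJ012 (interval −0.33 to −0.04) and −0.79 in 143B (interval −1.40 to −0.20). Within JJ012 HLA-B was lower by more than its regulator, and the NLRC5 to HLA-B ratio of FPKM was 0.0691 in the control and 0.126 after melatonin, a count ratio 1.82 times that of the control (interval 1.62 to 2.04). NLRC5 has 12386 exonic bases and HLA-B 4623, and the part of length in this ratio was not tested. In 143B the ratio moved the other way, at 0.0139 and 0.0078 (0.563 times, interval 0.367 to 0.854).

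**Figure D2:**
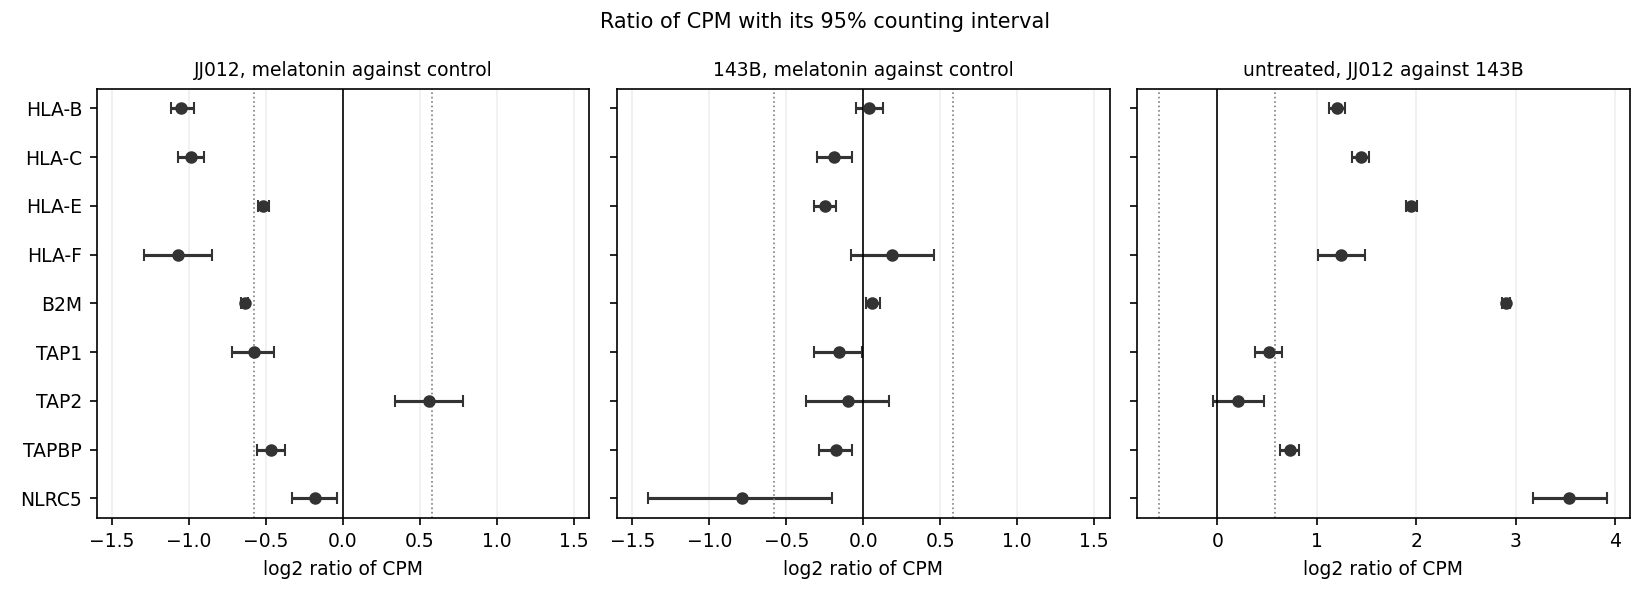
The log2 CPM ratio of each member with its 95% counting interval, for melatonin against control in JJ012, the same in 143B, and the JJ012 control against the 143B control. Dotted lines mark −0.58 and 0.58, the threshold that the text applies to FPKM + 1, and the scale of the right panel differs. In JJ012 8 members lie below 0 and TAP2 lies above it.

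Placed side by side, the log2 CPM ratio with melatonin differed between the lines beyond counting error for all 9 members. The log2 CPM ratio was lower in JJ012 than in 143B for 7 of them, by most for HLA-F (−1.26, interval −1.61 to −0.92), HLA-B (−1.08, −1.20 to −0.96), HLA-C (−0.80, −0.94 to −0.66) and B2M (−0.70, −0.75 to −0.65). For TAP2 the difference was 0.66 (interval 0.32 to 1.0) and for NLRC5 it was 0.60 (interval 0.02 to 1.19). These intervals hold no variation between cultures, and whether the lines respond differently could not be tested with 1 library each. For HLA-E and TAPBP the order of the lines also depended on the scaling. With TPM, HLA-E (log2 fold changes −0.24 in JJ012 and −0.31 in 143B) and TAPBP (−0.19 and −0.24) were not lower in JJ012. Less the length trend described below, HLA-E stood at −0.32 in JJ012 and −0.33 in 143B.

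Longer genes had higher fold changes in JJ012. Across the 15794 genes tested there, Spearman's rho between fold change and exonic length was 0.24, against −0.01 in 143B. Genes are not independent replicates, and the share of length in any member's value was not tested. The running median of 501 genes of like length was −0.23 at HLA-C, −0.19 at B2M and at HLA-E, 0.05 at HLA-B, 0.30 at TAP2 and 0.35 at NLRC5, the longest member with 12386 exonic bases. Less that median, HLA-B stood at −1.07, HLA-F at −0.84 and HLA-C at −0.74. TAP1 came to −0.60, past the threshold, and B2M to −0.45, short of it, so that 4 members were again fallen and none risen. TAP2 came to 0.08 and NLRC5 to −0.49. The median of the members was −0.57 on this scale.

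**Figure D3:**
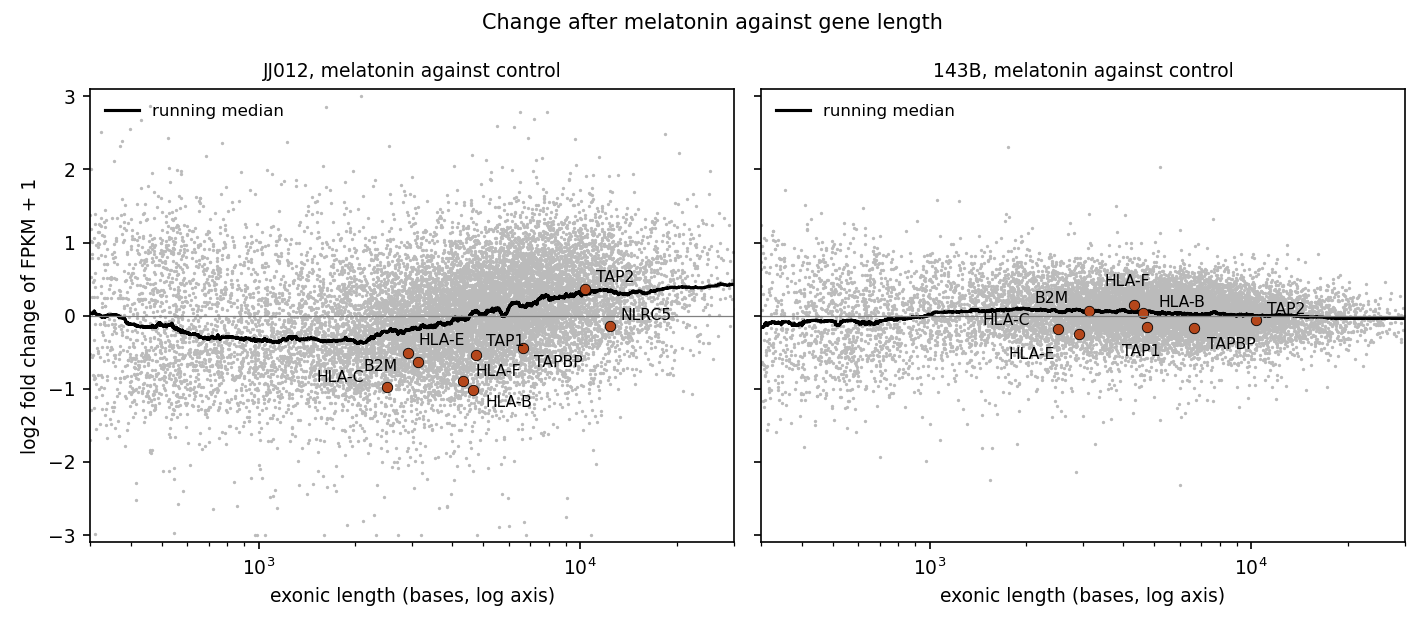
Log2 fold change with melatonin against exonic length in bases (log axis) for all tested genes (grey) with their running median (line) and the members that passed the filter (labelled points), in JJ012 and 143B, with values beyond the vertical axis drawn at its ends. In JJ012 TAP2 and NLRC5 sit where the running median is 0.30 and 0.35, while HLA-B, with a running median of 0.05, lies far under the line.

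Summed cell-type markers, those of cartilage and bone among them, were lower after melatonin in JJ012, as were 8 of the members. The summed level of 6 leukocyte genes was 11.5 FPKM in the control and 4.49 FPKM after melatonin, almost all of it CD3E (9.73 FPKM and 3.28 FPKM), with PTPRC, the pan-leukocyte marker CD45, at 0.14 FPKM and 0.02 FPKM. CD14 (0.51 and 0.53 FPKM) and SPI1 (0.13 and 0.24 FPKM) were not lower. In both 143B libraries the sum was at most 0.29 FPKM. The sums of 8 bone genes (107 and 68.3 FPKM), 8 cartilage genes (16.8 and 6.74 FPKM), 3 endothelial genes (2.23 and 0.93 FPKM) and 3 epithelial genes (19.4 and 13.5 FPKM) were also lower, though KRT8 (5.46 and 5.99 FPKM) and CDH5 (0.11 and 0.13 FPKM) singly were not. In 143B the bone sum was 6.97 and 5.08 FPKM, the cartilage sum 16.9 and 13.4 FPKM, the endothelial sum 2.4 and 2.05 FPKM and the epithelial sum 46.9 and 32.4 FPKM. Their part in the members' values was not tested. In such bulk samples, fewer cells of a kind and less RNA per cell cannot be told apart.

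Without melatonin, 7 of the 9 members were higher in JJ012 than in 143B and none was lower, in a comparison where 41.3% of 16929 tested genes were higher and 27.4% lower. It uses the same control libraries as the melatonin comparisons, so that a high JJ012 control raises this difference and lowers the JJ012 melatonin ratio at once. B2M was 7.46-fold higher by CPM in JJ012 (log2 CPM ratio 2.90, interval 2.86 to 2.94). HLA-E was 3.88-fold higher in JJ012, HLA-C 2.71-fold, HLA-F 2.37-fold, HLA-B 2.3-fold and TAPBP 1.65-fold. NLRC5, at 897 counts against 64, was 11.6-fold higher by CPM (log2 CPM ratio 3.53, interval 3.17 to 3.92). With 0.33 FPKM in the 143B control, NLRC5 passed the filter only through JJ012 and could not be called lower. TAP1 had a log2 fold change of 0.47 and TAP2 of 0.13, whose counting interval held 0. The members' median was 1.17, against 0.29 for all tested genes. Less the length trend it was 0.74, with 6 members higher, since HLA-F came to 0.52.

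Between the melatonin libraries the order of the lines was narrower for some members and wider for others. HLA-B was 1.08-fold as high in JJ012 as in 143B and HLA-F 0.985-fold, with a counting interval that held 0 on the log2 scale for HLA-F. B2M remained 4.59-fold higher, HLA-E 3.23-fold and HLA-C 1.56-fold. TAP2 was 1.83-fold and NLRC5 17.6-fold higher in JJ012. This comparison was added after the values were seen.

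The order of the members by FPKM was the same in all 4 libraries down to the seventh: B2M, HLA-E, HLA-C, HLA-B, TAPBP, TAP1 and HLA-F. NLRC5 then stood above TAP2 in JJ012 and below it in 143B. HLA-B drew more counts than HLA-C in every library (4844 against 4091 in the JJ012 control) but has 4623 exonic bases against 2507, which puts it under HLA-C per length. The annotated span of HLA-B runs upstream past its promoter window, and the part of that annotation in its length and in this order was not tested. With 1 library a condition, the spread that would separate neighbours in this order is not known.

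Around the members, the rest of the pathway was described by 11 written lists. Beside their counts, 18.6% of all tested genes fell and 19.6% rose in JJ012, and 6.65% and 6.09% in 143B. In JJ012 the list of peptide loading and endoplasmic reticulum chaperones, which includes B2M, TAP1, TAP2 and TAPBP, had 4 of 10 tested genes fallen and none risen (median log2 fold change −0.49). Beside B2M these were calreticulin (CALR), the lectin chaperone of the loading complex, with 855 FPKM in the control and 466 FPKM after melatonin, PDIA3 (ERp57), its disulfide isomerase, with 87.3 and 50.4 FPKM, and TAPBPL (TAPBPR), a peptide editor, with 11.5 and 6.28 FPKM. Calnexin (CANX), which binds heavy chains before B2M does, stood at 125 FPKM in both libraries. In 143B none of the 10 was called (median −0.02).

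Of the immunoproteasome and its PA28 activator, 3 of 6 genes fell in JJ012 (median −0.64), where 18.6% of all tested genes fell. The catalytic subunit PSMB8 had 5.31 and 2.1 FPKM in control and melatonin libraries, and the PA28 subunits PSME1 and PSME2 had 68.1 and 37.1 FPKM, and 19.1 and 10.5 FPKM. The other catalytic subunits PSMB9 (log2 fold change −0.18) and PSMB10 (−0.49) did not reach the threshold. Of the 3 constitutive catalytic subunits, PSMB6 and PSMB7 fell as well (log2 fold changes −0.79 and −0.83). Less the length trend, PSME1 (−0.52), PSMB6 and PSMB7 were short of the threshold, and the medians of both lists were −0.48. No gene of either list was called in 143B.

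Of 9 peptide-trimming genes tested in JJ012, none fell and LNPEP, the endosomal aminopeptidase of cross-presentation, rose from 5.42 to 10.2 FPKM. The endoplasmic reticulum aminopeptidases ERAP1 and ERAP2 had log2 fold changes of −0.41 and −0.45. Less the length trend LNPEP was no longer called (0.48), while ERAP1 (−0.68) and ERAP2 (−0.61) passed the threshold as fallen. In 143B the cytosolic aminopeptidase NPEPPS fell from 13.4 to 8.04 FPKM. Among 12 tested genes of the class I enhanceosome and regulators, RFXANK, a subunit of the RFX complex that NLRC5 works with, fell in JJ012 from 12.4 to 6.26 FPKM and none rose. The list's median was −0.02 with NLRC5 and −0.01 without it. Its partner RFX5 had 7.84 and 6.83 FPKM. No gene of the list was called in 143B.

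Of the interferon receptors and their signalling, 3 of 10 genes rose in JJ012 and none fell: the interferon gamma receptor chain IFNGR1 (13.8 and 31.1 FPKM) and the kinases JAK1 (20.5 and 37.8 FPKM) and JAK2 (3.84 and 6.62 FPKM), where 19.6% of all genes rose. Less the length trend JAK1 (0.55) and JAK2 (0.39) were short of the threshold and the kinase TYK2 (−0.62, against −0.38 with the trend) passed it as fallen. The interferon-stimulated list had 22 genes tested, 10 of them fallen and 1 risen, where 18.6% of all tested genes fell and 19.6% rose. Its median was −0.42. Of the fallen, OASL (1.72 and 0.54 FPKM) and XAF1 (1.34 and 0.55 FPKM) passed the filter only through the control and could not be called risen. Less the length trend the fallen numbered 13. Those named by size were IFI27 (90.6 and 21.2 FPKM), IFI35 (28.0 and 9.3 FPKM), IFIT1 (25.1 and 8.2 FPKM) and IFI6 (2285 and 839 FPKM), and the gene that rose was the ubiquitin ligase gene DTX3L (15.4 and 36.5 FPKM). In 143B, 9 of these genes were tested, of which IFIT2 rose (70 and 151 counts) and none fell, where 6.09% of all tested genes rose and 6.65% fell. IFIT2 lay at the threshold (log2 fold change 0.58), and less the length trend it was not called (0.53). In the control libraries 21 of 22 were higher in JJ012, with a median of 2.14, where 41.3% of all tested genes were higher. IFI27, IFI35 and IFIT1 had 0.8, 0.32 and 0.57 FPKM in the 143B control, and others of the list were also under 1 FPKM there. Such genes passed the filter only through JJ012 and could not be called lower. In the same comparison of controls, the class I enhanceosome and regulators, NLRC5 included, had 4 of 12 genes higher and 6 lower (median −0.17). Interferon receptors and signalling had 3 of 10 higher and 3 lower, and natural killer and checkpoint ligands 3 of 8 and 3. Every remaining list had more genes higher than lower, where 41.3% of all tested genes were higher and 27.4% lower.

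**Figure D4:**
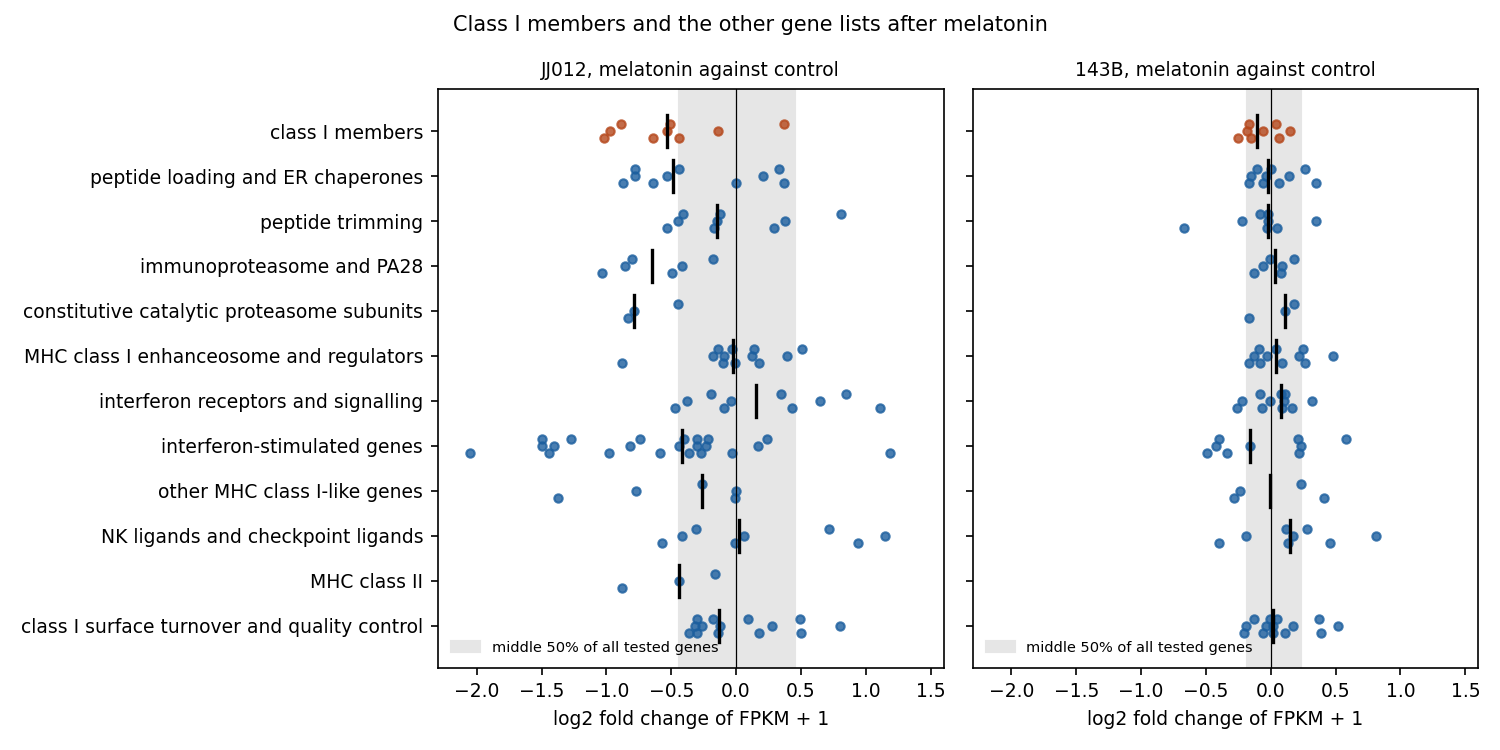
Log2 fold change with melatonin of each tested member (top row) and of each tested gene in the 11 lists, for JJ012 and 143B, 1 point per gene with the list median as a black bar and the middle 50% of all tested genes in grey. In JJ012 the list medians run from −0.79 for the constitutive catalytic proteasome subunits to 0.16 for interferon receptors and signalling.

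Other class I-like genes and ligands of lymphocytes were fewer. In JJ012, FCGRT, the heavy chain of the neonatal Fc receptor that also pairs with B2M, fell from 7.51 to 2.29 FPKM, and MR1, which presents vitamin B metabolites with B2M, fell from 2.83 to 1.25 FPKM. These were 2 of 5 tested genes, and none rose, where 18.6% of all tested genes fell. Of 8 natural killer and checkpoint ligands, 3 rose and none fell, where 19.6% of all tested genes rose and 18.6% fell. The risen were the DNAM-1 ligand PVR (7.34 and 17.5 FPKM), the checkpoint ligand CD274, which encodes PD-L1 (0.72 and 2.31 FPKM), and the NKp30 ligand NCR3LG1 (0.29 and 1.12 FPKM). CD274 and NCR3LG1 passed the filter only through the melatonin library and could not be called fallen. Less the length trend NCR3LG1 (0.54) was short of the threshold, and CD47, the ligand of the phagocyte receptor SIRP alpha, passed it as fallen (−0.80, against −0.57 with the trend). CD274 also rose in 143B, from 0.41 to 1.47 FPKM on 27 and 104 counts, and was the 1 gene of 8 called there. It again passed the filter only through the melatonin library. HLA-DMA, the class II peptide exchange factor, fell in JJ012 from 10.1 to 5.04 FPKM, 1 of 3 class II genes tested, and no class II gene reached 1 FPKM in 143B. Of 14 genes of surface turnover and quality control, SEL1L, an adaptor of endoplasmic reticulum degradation, rose in JJ012 (27.0 and 47.8 FPKM) and none fell, and less the length trend SEL1L was not called (0.54). No gene of the last 2 lists was called in 143B.

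The 322 other genes between HLA-F and TAPBP on chromosome 6 were taken as a comparison by position. In JJ012, 111 were tested. The fallen numbered 26 and the risen 10, beside 18.6% and 19.6% of all tested genes, the median log2 fold change was −0.29, and less the length trend the median was −0.10. In 143B, 96 were tested, the fallen numbered 11 and the risen 6, beside 6.65% and 6.09%, and the median was 0.01. The members' own medians were −0.53 and −0.10.

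The genes whose pattern over the 4 libraries lay nearest to the median pattern of the members were TMSB4X (Euclidean distance 0.103), FXYD5 (0.105), PTMS (0.115), KLHDC3 (0.116) and PEX3 (0.121), among 9667 genes with at least 5 FPKM in a library. The distance was taken over 4 values of log2(FPKM + 1), each less its gene's mean. The members' own distances ran from 0.247 for HLA-B to 1.76 for B2M, so the nearest genes lay closer to the median pattern than any member did.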

How the data were processed

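Poly(A) RNA of JJ012 and 143B cells was sequenced as paired reads, 1 library per condition. The submitters' processing notes name cutadapt 1.9.1, HISAT2 2.2.1, HTSeq 0.6.1, DESeq2 and the build hg38, with no settings. For each gene the authors deposited whole-number counts, FPKM (these counts per exonic length and library total, rounded to 2 decimals) and the exonic length of each gene. The labels name no columns, and those ending in T were taken to be the melatonin libraries.

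From these, log2((FPKM + 1)/(FPKM + 1)) was computed over genes with at least 1 FPKM in either library compared, and called at an absolute value of 0.58. CPM ratios were given exact conditional (Clopper-Pearson) 95% intervals, and the difference between lines a Wald interval. The design assumed FPKM, and counts were added when found. Within a line no count test was run, since no group has replicates. Over both lines, an edgeR quasi-likelihood fit (line and treatment as terms, Benjamini-Hochberg adjustment) was added after seeing the data, over genes with at least 1 FPKM in any library. It pairs control and melatonin by cell line. The steps were tested on simulated data. The members, lists and thresholds were chosen with earlier results of these data known. Of the lists' symbols, 128 matched and 4 did not. Besides the members, genes of each list were named if called with at least 5 FPKM in a library of that line, at most 4 a list and line by size of change. The plan also named list genes with a count of 5 or fewer, and this part was not followed. Among these, BST2 and IFI44L had 0 counts in the 143B control (18478 and 7442 in the JJ012 control). MICB and ULBP1 had 0 counts in the JJ012 control (303 and 344 in the 143B control). The remaining genes named (CANX, PSMB9, PSMB10, ERAP1, ERAP2, RFX5, TYK2, CD47, DTX3L, IFIT2, OASL, XAF1, MR1, CD274, NCR3LG1) and the ratios within a library were chosen after their values were seen. Alternatives were median centring, a smaller pseudocount (0.1 FPKM), a stricter filter (5 FPKM) or none, TPM, CPM, CPM on TMM-scaled totals, a threshold of 1 and removal of the length trend. Promoter windows came from RefSeq (GRCh38.p14) and were aligned globally. Python 3.11.15, numpy 2.4.6, scipy 1.17.1, pandas 2.3.3, matplotlib 3.10.9, Biopython 1.88, R 4.3.3 and edgeR 4.0.16 were used.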

Additional observations from a re-analysis of the deposited data

Results flagged for a closer look

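B2M was the member whose counting intervals lay on opposite sides of 0 in the lines. Its log2 CPM ratio with melatonin was −0.64 in JJ012 (95% counting interval −0.66 to −0.62) and 0.06 in 143B (0.02 to 0.11), a difference of −0.70. The opposite signs were lost less the length trend, where its log2 fold change in 143B was −0.01 (−0.45 in JJ012), and with TPM it was 0.01 in 143B. With 1 library per condition, the difference between the lines was not tested. Groups of 1 library allow no check for outlying samples.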

How the results depend on the processing

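In JJ012 the count of fallen members was 4 and that of risen members 0. With TPM and with CPM on TMM-scaled totals 1 member rose (TAP2) and 3 fell, since B2M dropped under the threshold, and with a threshold of 1 only HLA-B fell, a count of 1. The other alternatives left 4 fallen and 0 risen. In 143B no member was called under any alternative, and between the untreated lines 6 to 7 were higher and 0 lower. The alternatives that kept a filter could not call NLRC5 in 143B, where its log2 CPM ratio was −0.79. It entered only with no filter, at a log2 fold change of −0.16. The median of the members ran from −0.64 to −0.30 in JJ012, from −0.18 to −0.11 in 143B over the alternatives, and from 0.74 to 1.22 between the untreated lines. In JJ012 HLA-B ran from −1.07 to −0.76 and B2M from −0.64 to −0.36, and NLRC5 changed sign, from −0.49 to 0.09, as did TAP2 between the untreated lines, from −0.16 to 0.20. TPM moved the median of all genes in JJ012 from 0.01 to 0.27 and the share of higher genes among those called from 51.4% to 68.8%. Between the untreated lines that median moved from 0.29 to −0.01 with TPM and 0.01 with TMM, and the share from 60.1% to 49.3% and 50.4%. It was 48.6% after median centring and 47.7% less the length trend. B2M in 143B ran from −0.01 to 0.08. With the line as a replicate block, edgeR called 0 members over both lines, and 0 with no replicate block. No library was left out, since each condition has 1. Depth limits NLRC5 in 143B, at 64 and 40 counts, more than any other member.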
